A study of Homo sapiens with 28 samples.

Results

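The 6 genes described here encode the major actins of non-muscle cells and the small proteins that act on them: ACTB (ENSG00000075624) and ACTG1 (ENSG00000184009), the cytoplasmic beta and gamma actins, PFN1 (ENSG00000108518), CFL1 (ENSG00000172757) and TMSB10 (ENSG00000034510), which bind actin monomers or filaments, and MYL6 (ENSG00000092841), a light chain of myosin II. They were selected by identifier, with earlier results of these data known. All 6 were found in the count table, among 24678 genes with exonic reads, and all 6 were in the authors' table of degradation rate constants. They passed both filters on low counts, for the test of counts (12449 genes) and for the test of converted reads (1992 genes). In RefSeq on GRCh38.p14 all are protein coding, ACTB at chr7:5527148-5530601, ACTG1 at chr17:81509971-81512799, PFN1 at chr17:4945652-4948530, CFL1 at chr11:65854673-65858180, TMSB10 at chr2:84905656-84906671 and MYL6 at chr12:56158359-56161579.

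Actin monomers assemble into polar filaments that carry cell shape, division and movement. Profilin hands monomers to growing filament ends, thymosins hold monomers out of assembly, cofilin cuts and disassembles old filaments, and myosin II pulls on filaments. The mRNAs of this group are abundant in cultured cells and are known as long-lived, and transcription of actin genes is controlled by serum response factor, which binds the CArG box, with cofactors that sense the pool of free actin.

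The libraries came from HEK 293T cells, an established line of human embryonic kidney cells, wild type per the labels, grown in medium with serum and given 100 µM 4-thiouridine (s4U) for 2 h, or no s4U. Total RNA was recoded with 1 of 3 chemistries, so that s4U is read as C in place of T: NaIO4 + TFEA at pH 5.2, iodoacetamide, or OsO4 + NH3. Each chemistry was run under the handling labelled as drop-out conditions and under improved handling, in which RNA collection and data processing were meant, per the series, to lose less labelled RNA and fewer reads with T-to-C mismatches. Each chemistry and handling had 2 libraries with s4U and 1 without, 18 in all, and 10 samples of other chemistries were not analysed here. Nothing states whether the duplicates were separate cultures, so p-values measure the spread between these libraries, which may be technical. No library was shared between the handlings, so an effect of handling cannot be told apart from other differences between them, such as culture or batch. Each group without s4U is 1 library and has no spread of its own. Tests of counts that use such a library take their spread from the labelled duplicates, so they measure none among libraries without s4U.

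With the HISAT-3N alignment, an aligner that tolerates base conversion, the libraries held 1935777 to 9962345 reads. Reads not given to a single gene made up 32.7% to 41.5% of a drop-out library and 17.5% to 25.7% of an improved one. Across all exonic reads of genes, converted reads, those carrying 1 or more T-to-C mismatches, made up 10.4% to 17.4% in drop-out libraries with s4U, 24.7% to 33.2% in improved ones and 2.56% to 3.57% without s4U.

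One stretch of promoter is shown because it carries the element by which actin genes are regulated. RefSeq promoter windows of the GRCh38.p14 build, 300 bases each, were matched for 5 of the 6 genes: ACTG1, CFL1, MYL6, PFN1 and TMSB10. The ACTG1 window lies at chr17:81512750-81513049 on the minus strand, and the 60 bases at chr17:81512859-81512918, upstream of the gene, are given 5′ to 3′ with the CArG box in capitals.
ACTG1: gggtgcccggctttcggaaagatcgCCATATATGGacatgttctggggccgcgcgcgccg
The box spans bases 94 to 85 before the annotated start. Of 35116 promoter windows of this length, 454 (1.29%) held a CArG box on either strand, since the element reads alike on both. The windows of CFL1, MYL6, PFN1 and TMSB10 held no match to it. No deposited value of the series measures binding there.

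The share of exonic reads taken by each of the 6 genes was lower under improved handling, with and without s4U. Among ACTB libraries with s4U, the lowest, median and highest were 7014, 7511 and 7721 CPM (exonic read counts scaled to library size with TMM factors) under drop-out handling and 1430, 1490 and 1554 CPM under improved handling. The 3 libraries without s4U held 6190, 6269 and 6500 CPM of ACTB under drop-out handling and 1111, 1143 and 1170 CPM under improved handling. Every drop-out library was thus above every improved one. The change was -2.32 ± 0.09 (log2, SE) with s4U and -2.47 ± 0.13 without (edgeR quasi-likelihood test, adjusted p = 1.68e-16 and 5.21e-13). CPM is a share of a library's exonic reads in bulk RNA, so less RNA of a gene, fewer cells with it and more RNA of other genes cannot be told apart.

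ACTG1, the second actin, had 5972, 7071 and 8147 CPM as lowest, median and highest under drop-out handling with s4U, and 1375, 1461 and 1537 CPM under improved handling. Its drop-out replicates lay further apart than those of ACTB, at 6455 and 8147 CPM with NaIO4 + TFEA, 5972 and 7995 with iodoacetamide, and 6111 and 7687 with OsO4 + NH3. Without s4U it fell from 5456, 5827 and 5936 CPM to 764, 864 and 913 CPM. The log2 change was -2.27 ± 0.10 with s4U (adjusted p = 1.20e-15) and -2.76 ± 0.15 without (edgeR, adjusted p = 5.60e-13).

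The proteins that act on monomers and filaments gave similar values. CFL1, which severs filaments, ran from 1209 to 1335 CPM over the 6 drop-out libraries with s4U and from 241 to 293 CPM over the 6 improved ones (log2 change -2.22 ± 0.10). PFN1, which feeds monomers to growing ends, ran from 966 to 1227 CPM and from 199 to 246 CPM (-2.30 ± 0.10). TMSB10, which sequesters monomers, ran from 264 to 442 CPM and from 80.1 to 136 CPM (-1.70 ± 0.14). MYL6, the myosin light chain, ran from 300 to 408 CPM and from 69.8 to 113 CPM (-1.98 ± 0.14). The ranges of the 2 handlings did not overlap for any of the 6 genes, and in 25.3% of the 12449 genes every improved library was likewise below every drop-out one. The edgeR adjusted p of these 4 genes lay between 7.34e-16 (PFN1) and 2.87e-11 (TMSB10).

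**Figure D1:**
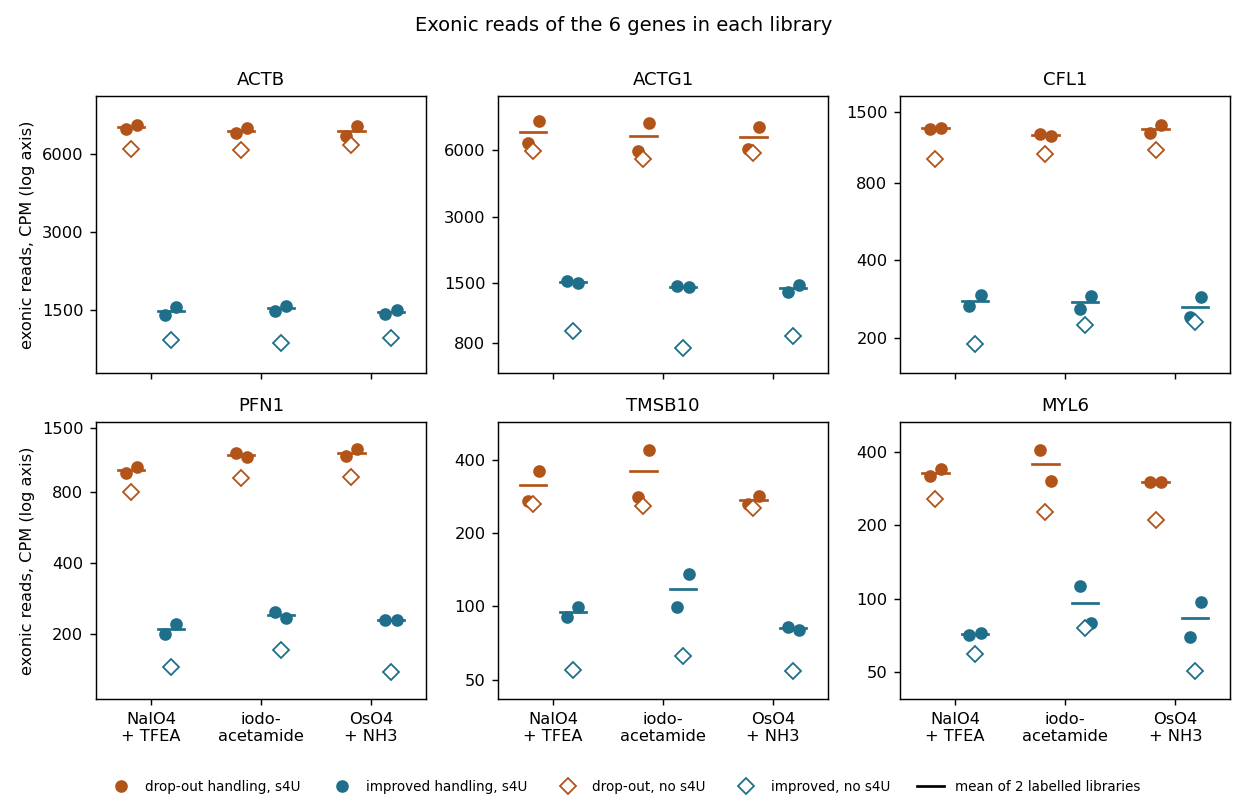
Exonic reads of each gene in CPM (log axis) by chemistry, with drop-out handling in orange and improved handling in blue. Filled circles are single libraries with s4U, bars the mean of 2, and open diamonds the 1 library without s4U. ACTB sits between 7014 and 7721 CPM in drop-out libraries with s4U and between 1430 and 1554 CPM in improved ones.

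Such falls were common in these libraries, and these 6 were among the larger. With s4U, 34% of the 12449 genes tested were lower under improved handling at an adjusted p under 0.05, as were 6 of these 6, and the median log2 change of all genes was 0.44. In the order of log2 changes over all genes tested, ACTB stood at percentile 2.55, PFN1 at 2.71, ACTG1 at 2.92, CFL1 at 3.37, MYL6 at 6.43 and TMSB10 at 11.6. Without s4U, 30.7% of genes were lower, 6 of these 6 among them, with log2 changes from -2.76 (ACTG1) to -1.91 (MYL6) and percentiles from 1.10 (ACTG1) to 6.82 (MYL6). Within each chemistry on its own, 27.1% of genes were lower with NaIO4 + TFEA, 27.1% with iodoacetamide and 27.1% with OsO4 + NH3, and all 6 genes were among them each time. Counting intronic reads too, the falls with s4U were larger, from -2.40 (TMSB10) to -3.01 (ACTB) on the log2 scale. The median of the 15397 genes then tested was 0.59. Intronic reads made up 26.7% to 35.2% of the gene reads of a drop-out library with s4U and 42.1% to 51.8% of an improved one. These 6 genes had few, so counting them changes the total that CPM is a share of.

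Over the 18 libraries, the CPM of these genes moved together. The correlation of each gene's log2(CPM + 1) with the mean of the other 5 ran from r = 0.972 for TMSB10 to 0.995 for ACTB, as a description, since all points share the 2 handlings. Among 452 other genes with at least 500 exonic reads on average, ENSG00000067225 (r = 0.997) and ENSG00000196230 (r = 0.996) followed the mean of the 6 most closely. High values were usual: the median over the 452 was 0.939, and 58.0% were above 0.9.

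**Figure D2:**
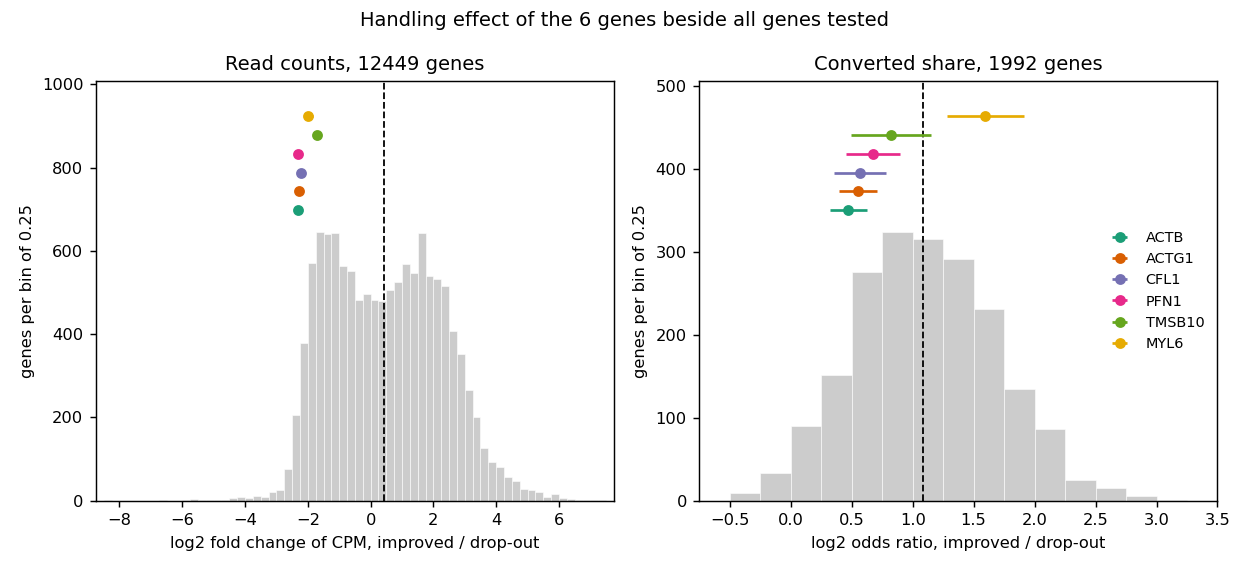
Left, the log2 fold change of CPM between improved and drop-out handling with s4U for 12449 genes (grey bars, genes per bin of 0.25). Right, the log2 odds ratio of converted reads for 1992 genes. Coloured points with SE bars are the 6 genes and the dashed line is the median of all genes, 0.44 on the left and 1.09 on the right. All 6 points lie left of the line for counts, and 5 of 6, all but MYL6, do so for the converted share.

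Libraries with s4U held more of each gene than the library without s4U of their own chemistry and handling, in 12 of 12 libraries for each of the 6. Of the 12449 genes tested, 0.932% were higher in 12 of 12. The 12 comparisons share 6 libraries without s4U, and the 6 genes move together over the libraries, so neither are independent. Under improved handling, ACTG1 was at 1375 to 1537 CPM in the 6 libraries with s4U and at 764 to 913 CPM in the 3 without, a log2 difference of 0.79 ± 0.13 (edgeR adjusted p = 0.00123). PFN1 was at 199 to 246 CPM with s4U and at 137 to 170 CPM without (0.59 ± 0.12, edgeR adjusted p = 0.0315). Both were called higher, against 0.201% of the genes tested. TMSB10 had a difference of the same size as ACTG1, 0.77 ± 0.17, at 80.1 to 136 CPM with s4U and 54.0 to 62.5 CPM without, and did not pass the threshold (edgeR adjusted p = 0.0562), although it did in 11 of 26 alternative settings, over which 0.103% to 1% of all genes were called. For ACTB (0.38), CFL1 (0.35) and MYL6 (0.44) the adjusted p was 0.215 or more in edgeR. PFN1 lost its call when any 1 of the 9 improved libraries was left out, which left 1 gene called, ACTG1. With either iodoacetamide drop-out library with s4U left out, 5 genes were called, all but MYL6, while the share of all genes called, either direction, was 0.819% (without replicate 1) and 0.837% (without replicate 2), against 0.257% with all libraries. With intronic reads counted, 0 of the 6 were called and 0.266% of genes.

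Under drop-out handling the differences with s4U were 0.24 (ACTB), 0.30 (ACTG1), 0.33 (PFN1), 0.30 (CFL1), 0.29 (TMSB10) and 0.50 (MYL6) on the log2 scale, with SE between 0.11 and 0.17. None of the 6 passed the threshold, and 0.353% of genes did (edgeR, 44 of 12449, with 1364 at an unadjusted p under 0.05, ACTB, ACTG1, CFL1, MYL6 and PFN1 among them). The absence of calls depended on 2 libraries: without iodoacetamide drop-out replicate 1, 6 of 6 genes were called higher, and without replicate 2, 5 of 6, all but TMSB10. The share of all genes called rose too, to 2.97% and 0.967%. The test of the difference between the 2 handlings called none of the 6 and 0.00803% of genes (1 gene by edgeR, 919 at an unadjusted p under 0.05). ACTG1 came nearest, with 0.49 ± 0.17 more under improved handling (edgeR adjusted p = 0.539), and was called (0.53 ± 0.09, edgeR adjusted p = 0.00941) without iodoacetamide drop-out replicate 2, where 0.114% of all genes were called (14 genes).

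The converted share of exonic reads, which marks RNA made during labelling on top of a background, rose with improved handling in all 6 genes as a mean over chemistries. The log2 odds ratio was below the median of all genes for 5 of them. No background was subtracted. With iodoacetamide, the mean share above the library without s4U went from 4.63 to 2.70 points in CFL1, 1.80 to 1.63 in PFN1 and 0.53 to 0.03 in TMSB10. It rose in ACTB, ACTG1 and MYL6, and in all 6 with the other chemistries. ACTB had 7.64% and 7.29% converted reads in the drop-out libraries with NaIO4 + TFEA, 9.08% and 7.81% with iodoacetamide, and 9.0% and 8.79% with OsO4 + NH3. Under improved handling these became 10.4% and 10.4%, 11.7% and 9.35%, and 14.4% and 10.8%. All 6 improved libraries were above all 6 drop-out ones. Without s4U, ACTB had 3.51% to 4.57% under drop-out handling and 3.49% to 4.67% under improved handling. The log2 odds ratio between handlings was 0.47 ± 0.15 (edgeR, adjusted p = 0.00372).

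ACTG1 ran from 6.23% to 9.05% under drop-out handling and from 8.24% to 13.4% under improved handling with s4U, with 3.08% to 4.65% in the 6 libraries without. Its log2 odds ratio was 0.55 ± 0.16 (edgeR adjusted p = 0.000992). CFL1 ran from 4.34% to 8.38% and from 6.18% to 10.9% (0.57 ± 0.21, edgeR adjusted p = 0.0110), and PFN1 from 3.62% to 7.42% and from 6.87% to 11.4% (0.67 ± 0.22, edgeR adjusted p = 0.00381). Without s4U, CFL1 had 2.28% to 3.35% under drop-out and 2.59% to 5.59% under improved handling, and PFN1 2.88% to 5.0% and 3.03% to 6.25%. Above the library without s4U, CFL1 averaged 3.44 ± 1.45 and 4.57 ± 2.14 points (SD, n = 6), and PFN1 2.20 ± 1.03 and 4.70 ± 2.64. The ranges of the handlings overlapped for these 3 genes and for TMSB10, and did not for ACTB and MYL6, 2 of 6, against 43.5% of the 1992 genes with every improved library above every drop-out one. TMSB10 ran from 2.65% to 6.27% and from 3.77% to 9.94% (0.82 ± 0.33, edgeR adjusted p = 0.0178). In iodoacetamide improved replicate 1, TMSB10 was at 3.77%, under the 6.0% of the library without s4U, which rests on 100 reads. TMSB10 lost its call without any 1 of 4 libraries (NaIO4 + TFEA drop-out replicate 2, NaIO4 + TFEA improved replicate 1, iodoacetamide improved replicate 2 or OsO4 + NH3 improved replicate 1), and CFL1 without iodoacetamide improved replicate 2.

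MYL6, the myosin light chain, had the largest log2 odds ratio of the 6, and its difference from the others was not tested. Its drop-out libraries had 4.75% and 3.46% with NaIO4 + TFEA, 5.81% and 5.37% with iodoacetamide, and 4.50% and 6.28% with OsO4 + NH3, while the libraries without s4U had 2.41%, 5.47% and 5.16% in the same order. Drop-out values were thus near the background, above their own unlabelled library in 4 of 6 cases. Improved handling gave 24.6% and 7.69%, 13.3% and 13.5%, and 13.1% and 9.95%, against 4.46%, 4.96% and 1.77% without s4U. The 24.6% of NaIO4 + TFEA improved replicate 1 rests on 175 reads (95% Wilson interval 18.8% to 31.5%, counting error only), and its partner at 7.69% on 104 reads (3.95% to 14.4%). The log2 odds ratio was 1.60 ± 0.31 (edgeR adjusted p = 3.07e-06).

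**Figure D3:**
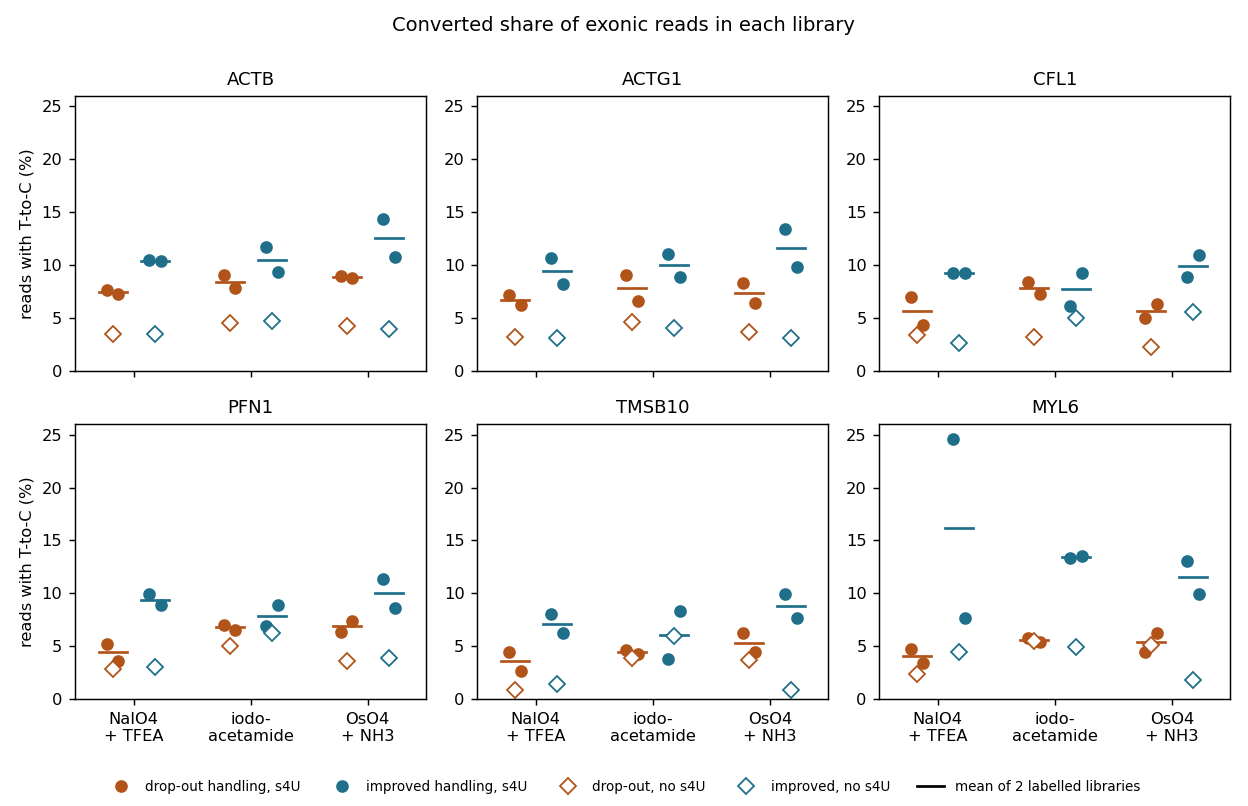
Percent of each gene's exonic reads that were converted, by chemistry, symbols as in the plot of CPM by library. Filled circles are libraries with s4U and open diamonds those without. ACTB rises from 7.29% to 9.08% under drop-out handling to 9.35% to 14.4% under improved handling, and MYL6 spans 7.69% to 24.6% under improved handling.

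Against the background, 82.2% of the 1992 genes tested had a higher converted share under improved handling at an adjusted p under 0.05, and 6 of these 6 did, so the share of genes called does not set them apart. The median log2 odds ratio of all genes was 1.09. ACTB stood at percentile 13.6 of these odds ratios, ACTG1 at 16.5, CFL1 at 17.3, PFN1 at 23.8, TMSB10 at 33.4 and MYL6 at 80.4. By the mean level of the converted share itself, 5 of the 6 stood lower in the order of all genes under improved than under drop-out handling, and MYL6 higher. ACTB went from percentile 32.3 to 10.9, ACTG1 from 23.4 to 8.33, CFL1 from 16.1 to 5.37, PFN1 from 13.5 to 5.72 and TMSB10 from 3.11 to 2.11, and MYL6 from 5.97 to 21.1. In single libraries the percentiles of the 2 handlings did not overlap for ACTB (28.1 to 46.6 and 8.38 to 17.2) and ACTG1 (24.7 to 32.6 and 7.08 to 14.0). They overlapped for CFL1 (6.58 to 35.1 and 3.01 to 12.2), PFN1 (8.61 to 36.4 and 4.17 to 10.9), TMSB10 (3.11 to 13.2 and 0.50 to 6.17) and MYL6 (4.92 to 27.0 and 7.43 to 63.3). Without NaIO4 + TFEA improved replicate 1, the mean share of MYL6 under improved handling was 11.5% in place of 13.7%, at percentile 12.05. The median gene had 10.6% converted reads under drop-out and 21.5% under improved handling.

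Among the 6 genes under drop-out handling, the mean converted share rose in the order TMSB10 (4.45% ± 1.15, SD, n = 6), MYL6 (5.03% ± 1.01), PFN1 (6.04% ± 1.40), CFL1 (6.37% ± 1.49), ACTG1 (7.31% ± 1.15) and ACTB (8.27% ± 0.78). Within libraries, ACTB was above ACTG1 in 6 of 6 and PFN1 above MYL6 in 6 of 6. Other neighbours changed places in at least 1 library, and the mean gap between CFL1 and PFN1, 0.33 percentage points, was under its SD of 1.28. Under improved handling the order was TMSB10 (7.32% ± 2.11), CFL1 (8.97% ± 1.54), PFN1 (9.10% ± 1.5), ACTG1 (10.4% ± 1.83), ACTB (11.2% ± 1.74) and MYL6 (13.7% ± 5.81). MYL6 was above ACTB in 3 of 6 improved libraries, and PFN1 above CFL1 in 3 of 6 (mean gap 0.13 percentage points, SD 1.58), so neither order held beyond the spread. The other neighbours kept this order in 5 of 6. Reads of TMSB10 hold the fewest T positions of the 6, and per T it was not the lowest, as given below. Neither these orders nor the percentiles above allow for that.

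Reads of these genes differ in how many T positions they hold, from 22.6 per read in TMSB10 to 34.4 in MYL6 (means of the improved libraries with s4U), so the mismatches were also counted per T. Per 100 T positions, ACTB had 0.416 ± 0.097 T-to-C mismatches under drop-out and 0.687 ± 0.238 under improved handling (SD, n = 6), with 0.126 and 0.12 in the libraries without s4U. TMSB10, lowest by converted share, had 0.316 ± 0.104 and 0.750 ± 0.425 per 100 T. Under improved handling this was above the means of ACTB, PFN1 (0.563), CFL1 (0.583) and ACTG1 (0.636), and below MYL6 (0.911). Under drop-out handling MYL6 had the lowest mean (0.209). The difference within chemistries averaged 0.27 for ACTB, 0.26 for ACTG1, 0.25 for CFL1, 0.28 for PFN1, 0.43 for TMSB10 and 0.70 for MYL6. An exact two-sided permutation of handling within chemistry gave p = 0.00926 for ACTB, ACTG1, PFN1 and MYL6, the smallest value the 216 arrangements can give, p = 0.0185 for CFL1 and p = 0.0463 for TMSB10, not adjusted for the 6 genes. The permutation treats the libraries as independent, although same-numbered drop-out libraries deviated together in log2 CPM across chemistries (r = 0.195 to 0.237 over genes). By the same exact permutation, 80.7% of the 1992 genes had a higher rate under improved handling at an unadjusted p under 0.05, with a median difference of 0.892. For TMSB10 the permutation p was above the threshold without any 1 of 9 of the 12 libraries. All exonic reads of genes had a median of 0.823 mismatches per 100 T under drop-out and 1.86 under improved handling. All 6 genes were below these medians in the mean of each handling.

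A read with 2 or more mismatches is rarely background, and such reads were nearly absent without s4U, at 0% in every one of these libraries for MYL6 and at most 0.435% (TMSB10) for any of the 6. With s4U, ACTB had 2.55% ± 0.72 such reads under drop-out and 4.85% ± 1.54 under improved handling, and MYL6 1.37% ± 0.89 and 6.02% ± 3.27. Counted this way, the log2 odds ratio between handlings was 0.96 for ACTB, 1.06 for ACTG1, 1.04 for CFL1, 1.27 for PFN1, 0.95 for TMSB10 and 2.38 for MYL6. The median of all genes rose likewise, to 1.63, and stayed above 5 of the 6. All but TMSB10 passed the threshold (edgeR, TMSB10 adjusted p = 0.0966), 5 of 6 against 80.6% of the 1992 genes.

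Each chemistry taken alone left fewer calls. With NaIO4 + TFEA, 46.2% of genes had a higher converted share under improved handling, and PFN1 (log2 odds ratio 1.18 ± 0.39) and MYL6 (2.21 ± 0.55) were the 2 of 6 called. With iodoacetamide 47% of genes were higher, and MYL6 alone of the 6 (1.39 ± 0.53), while CFL1 had 0.03 ± 0.40. With OsO4 + NH3 52.1% were higher, and CFL1 (0.88 ± 0.36) and ACTG1 (0.72 ± 0.27) were called. The calls with NaIO4 + TFEA both went when its improved replicate 1 was left out, where MYL6 had 0.97 ± 0.81 (edgeR adjusted p = 0.372), and that of PFN1 without its drop-out replicate 2. MYL6 with iodoacetamide was lost without any 1 of drop-out replicate 2 and the improved replicates, ACTG1 and CFL1 with OsO4 + NH3 without improved replicate 1, CFL1 also without drop-out replicate 1 or improved replicate 2, and ACTG1 without drop-out replicate 2. Other genes gained calls in alternative settings, CFL1 with NaIO4 + TFEA in 10 of 19, ACTB with OsO4 + NH3 in 8 of 19 and MYL6 with OsO4 + NH3 in 6 of 18. Over the alternatives the share of all genes called ran from 15.7% to 77.2% with NaIO4 + TFEA and from 19.2% to 81.9% with OsO4 + NH3. Leaving out either iodoacetamide drop-out library, whose spread the fit shares, added both ACTB and MYL6 with OsO4 + NH3, for 4 calls, while 56.8% (without replicate 1) and 57.6% (without replicate 2) of all genes were called. Over all genes, replicate 1 had the higher converted share in each drop-out group, 15.1% against 10.4% with NaIO4 + TFEA, 15.9% against 11.1% with iodoacetamide and 17.4% against 12.5% with OsO4 + NH3. The replicate number as a block, whose counts are given below, added calls with NaIO4 + TFEA and OsO4 + NH3. ACTB, ACTG1 and TMSB10 with NaIO4 + TFEA gained a call in 1 alternative each.

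Tests of the difference between chemistries called none of the 6. For the handling effect, 0% of genes were called for each of the 3 pairs of chemistries, with 36, 31 and 25 genes at an unadjusted p under 0.05 by edgeR. For the converted share under improved handling, 0% of genes were called for each pair, with 85 (OsO4 + NH3 against iodoacetamide), 80 (OsO4 + NH3 against NaIO4 + TFEA) and 42 (NaIO4 + TFEA against iodoacetamide) at an unadjusted p under 0.05 by edgeR. The log2 odds ratio of OsO4 + NH3 against iodoacetamide was 0.29 ± 0.27 for ACTB, 0.24 ± 0.27 for ACTG1, 0.37 ± 0.39 for CFL1, 0.36 ± 0.40 for PFN1, 0.48 ± 0.58 for TMSB10 and -0.27 ± 0.54 for MYL6.

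MYL6 is the one gene of the group with many reads that the authors' counting gave to other genes too. RefSeq lists no gene that overlaps it, and the shared reads name 5 other genes. Over all libraries, 2875 of its reads were given to MYL6 and another gene at once, or 66.9% of the 4299 given to MYL6 alone, against at most 0.112% for the other 5 (ACTG1). The shared reads had 3.94% to 5.81% converted reads in drop-out libraries with s4U, 7.08% to 23.3% in improved ones, and 0% to 8.62% without s4U. In NaIO4 + TFEA improved replicate 1, where MYL6's own reads reached 24.6%, the 113 shared reads had 7.08%. With the shared reads added to MYL6, an alternative chosen after the data were seen, its count change was -2.14 ± 0.12 and its log2 odds ratio 1.55 ± 0.26 (edgeR adjusted p = 2.50e-14 and 7.50e-08), close to the values without them.

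Few reads of these genes were intronic, and the difference in intronic share between the handlings, in percentage points, was below the median of all genes for each of the 6. Under drop-out handling with s4U, the intronic share averaged 0.774% for ACTB, 0.302% for ACTG1, 0.824% for CFL1, 2.38% for PFN1, 6.17% for TMSB10 and 0.371% for MYL6. It was higher under improved handling for CFL1 (2.88%, difference 2.05 percentage points) and MYL6 (3.90%, difference 3.53), each with an exact permutation p = 0.00926, the smallest possible. Of the 1992 genes with enough exonic reads, 78.4% had a higher intronic share under improved handling at an unadjusted exact permutation p under 0.05, and the median difference was 10.9 percentage points, above all 6 genes. The median share of all genes was 7.81% under drop-out and 19.5% under improved handling, so these genes start from a higher level. Relative to their own level, CFL1 and MYL6 rose by a larger factor than this median did, and the other 4 did not. The other 4 genes differed by -0.29 to 0.74 percentage points (exact permutation p from 0.213 to 0.963). For CFL1 these are 69 and 85 intronic reads over 6 libraries each, and for MYL6 9 and 37. In the 3 libraries per handling without s4U, the intronic share averaged 1.77% and 2.94% for CFL1 and 1.95% ± 0.84 and 2.39% ± 2.11 for MYL6 (SD, n = 3), under drop-out and improved handling, so the drop-out mean of both genes was lower with s4U than without.

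Intronic reads can come from RNA not yet spliced, and their source was not tested here. In the summed improved libraries the converted share was higher among intronic than exonic reads in all 6 genes, and 1 of them, ACTB, passed the test over libraries. Summed over the 6 improved libraries with s4U, 50.6% of 85 intronic reads of CFL1 were converted (95% Wilson interval 40.2% to 61.0%, counting error only) and 9.29% of its exonic reads. For PFN1 the values were 40.5% of 84 intronic reads and 9.34% of exonic reads, for ACTB 32.8% of 131 and 11.2%, for ACTG1 28.8% of 59 and 10.5%, for TMSB10 25.7% of 70 and 7.68%, and for MYL6 45.9% of 37 and 14.0%. Without s4U, 0% of 49 (PFN1) to 6.45% of 31 (ACTG1) intronic reads were converted in the improved libraries, and in the drop-out libraries 0% of 88 (ACTB) to 14.1% of 71 (ACTG1). In ACTB, the 9 libraries with at least 20 intronic reads gave a mean difference of 11.8 percentage points, positive in 8 (exact two-sided sign-flip permutation p = 0.0156). With a minimum of 50 reads, 4 libraries were left and the difference was 5.56 (p = 0.375 by the exact permutation), and with the unlabelled library subtracted it was 16.3 over 6 libraries (p = 0.0625 by the exact permutation). PFN1 had 6 such libraries (11.5 points, positive in 5, exact permutation p = 0.0625), TMSB10 3, CFL1 2, ACTG1 1 and MYL6 0, too few to reach the threshold for the last 4. Of the 1466 genes with 6 or more such libraries, 96.3% had a higher converted share among intronic reads at an unadjusted exact sign-flip p under 0.05, with a median difference of 42.4 percentage points, above ACTB and PFN1. Most of the libraries used for ACTB and PFN1 were drop-out ones, and the mix of handlings behind the median was not matched to theirs. In the summed drop-out libraries with s4U, 17.1% of 328 intronic reads of ACTB and 16.7% of 186 of PFN1 were converted. In the 1 library of ACTG1, iodoacetamide drop-out replicate 2, the difference of 6.31 points became -20.9 with the unlabelled library subtracted, where 31.8% of 22 intronic reads were converted.

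The alignment changed the counts of every gene and the converted share of some. STAR gave more exonic reads than HISAT-3N in 12 of 12 libraries with s4U for all 6 genes, by 0.14 (PFN1), 0.15 (ACTG1), 0.19 (CFL1), 0.22 (ACTB), 0.36 (TMSB10) and 0.78 (MYL6) on the log2 scale (exact two-sided sign-flip permutation p = 0.000488, the smallest possible). By the same test 99.1% of 1988 genes had more reads by STAR. The total of exonic reads of all genes rose as well, by 0.26 to 0.37 over these libraries, with a median of 0.33, so the rise in PFN1, ACTG1, CFL1 and ACTB was below that of the libraries as a whole. The converted share by STAR was lower by 1.33 percentage points in TMSB10 and 2.11 in MYL6, each in 11 of 12 libraries (exact permutation p = 0.000977 and 0.00146). Of 1988 genes, 58.6% were lower by STAR at an unadjusted exact sign-flip p under 0.05. In ACTB, ACTG1, CFL1 and PFN1 it differed by -0.17 to 0.02 points (exact permutation p from 0.198 to 0.911). RefSeq lists pseudogenes named after each gene, 14 for ACTB, 21 for ACTG1, 8 for CFL1, 10 for PFN1, 2 for TMSB10 and 5 for MYL6, and how far reads of such near copies move between alignments was not tested.

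HISAT2, which has no special treatment of conversions, gave lower converted shares with setting D than HISAT-3N for all 6 genes, from -0.84 points (PFN1) to -3.27 points (MYL6), with an exact permutation p from 0.000488 to 0.00146. Over all genes, 97.2% of 1991 were lower at an unadjusted exact sign-flip p under 0.05, with a median of -4.15 points. With setting ML the share was lower in ACTB (-0.51 points), TMSB10 (-1.44) and MYL6 (-1.69), with an exact permutation p from 0.000977 to 0.00928, against 79.8% of 1992 genes lower. With its setting VL the sign turned, and 71.4% of 1992 genes were higher by that test, with a median of 3.33 points. The converted share was then higher than with HISAT-3N by 6.69 points in ACTB, 5.20 in ACTG1, 6.95 in CFL1, 7.15 in PFN1, 2.27 in TMSB10 and 4.61 in MYL6. In the libraries without s4U the rise was 7.42 points in ACTB, 5.65 in ACTG1, 7.66 in CFL1, 6.26 in PFN1, 2.58 in TMSB10 and 4.37 in MYL6. What D, ML and VL stand for is not given in the sources used here.

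**Figure D4:**
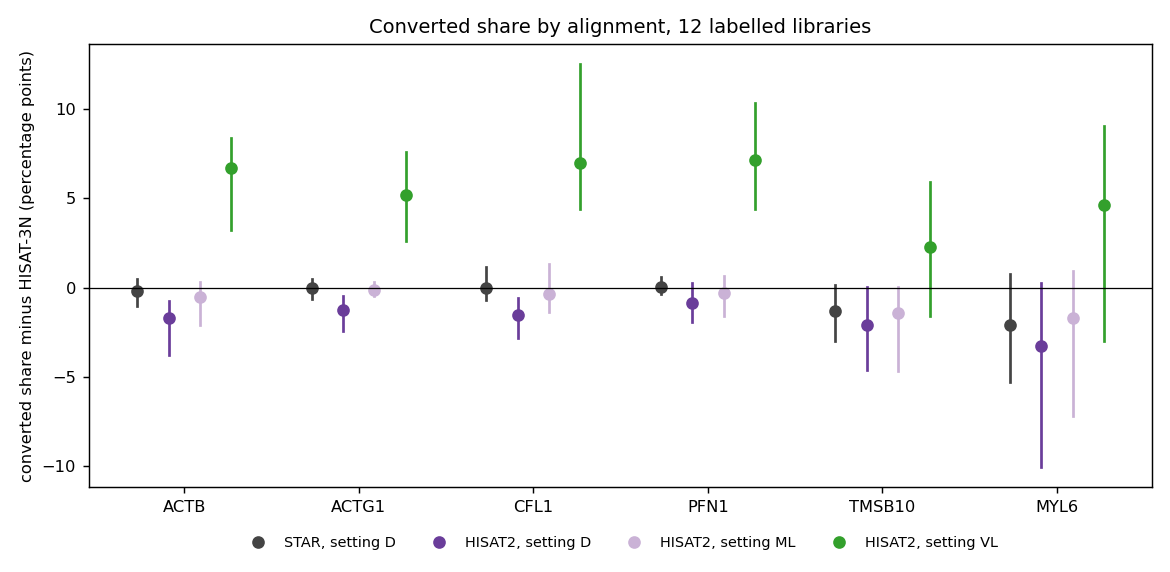
Converted share with another alignment minus that with HISAT-3N, in percentage points, over the 12 libraries with s4U. Points are means and lines run from the lowest to the highest library. STAR lies near 0 for ACTB, ACTG1, CFL1 and PFN1, and HISAT2 with setting VL is above HISAT-3N by 2.27 (TMSB10) to 7.15 (PFN1) points on average.

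The authors' deposited table gives first-order rate constants of RNA degradation, with no time unit stated, for all 6 genes and all 3 chemistries. With NaIO4 + TFEA, the authors' deposited table has 0.0245 (drop-out) and 0.0334 (improved) for ACTB, 0.0236 and 0.0332 for ACTG1, 0.0187 and 0.0370 for CFL1, 0.0142 and 0.0374 for PFN1, 0.0104 and 0.0476 for TMSB10, and 0.00801 and 0.0586 for MYL6. The median over its 2209 transcripts was 0.0430 and 0.102. All 6 genes were below the median under both handlings in the authors' deposited table with each of the 3 chemistries. Under improved handling their percentiles ran from 7.88 (ACTG1) to 23.1 (MYL6) with NaIO4 + TFEA, from 4.75 (PFN1) to 13.5 (MYL6) with iodoacetamide and from 4.07 (PFN1) to 20.2 (MYL6) with OsO4 + NH3.

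The change between handlings in the authors' deposited table was largest for MYL6, with a log2 change of 2.93 (NaIO4 + TFEA), 2.51 (iodoacetamide) and 2.22 (OsO4 + NH3) and authors' adjusted p = 2.36e-05, 0.00197 and 0.000623. The deposited log2 change departs from the ratio of the 2 deposited constants by up to 0.35 over all transcripts. MYL6 went from the lowest of the 6 constants to the highest with each chemistry. Its drop-out converted share was near the background, on average 0.68 points above the library without s4U. By chemistry this was 1.69 points with NaIO4 + TFEA, 0.11 with iodoacetamide and 0.23 with OsO4 + NH3. How far its drop-out constants rest on such low labelled signal was not tested. The constants are for the same chemistries and handlings as the reads above, so they are not separate evidence. For NaIO4 + TFEA the authors' deposited table also has an adjusted p under 0.05 for CFL1 (1.0), PFN1 (1.42) and TMSB10 (2.25), which makes 4 of 6 higher, against 52.6% of its transcripts. With iodoacetamide 1 of 6 was higher, MYL6, against 48.9% of transcripts, and with OsO4 + NH3 1 of 6, MYL6 again, against 48.1%. ACTB changed by 0.45, 0.00 and 0.52 and ACTG1 by 0.50, 0.10 and 0.45 on the log2 scale of the authors' deposited table in the order NaIO4 + TFEA, iodoacetamide, OsO4 + NH3, with authors' adjusted p from 0.0517 to 0.997. The median log2 change of all transcripts was 1.18, 1.14 and 1.19 in the same order.

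**Figure D5:**
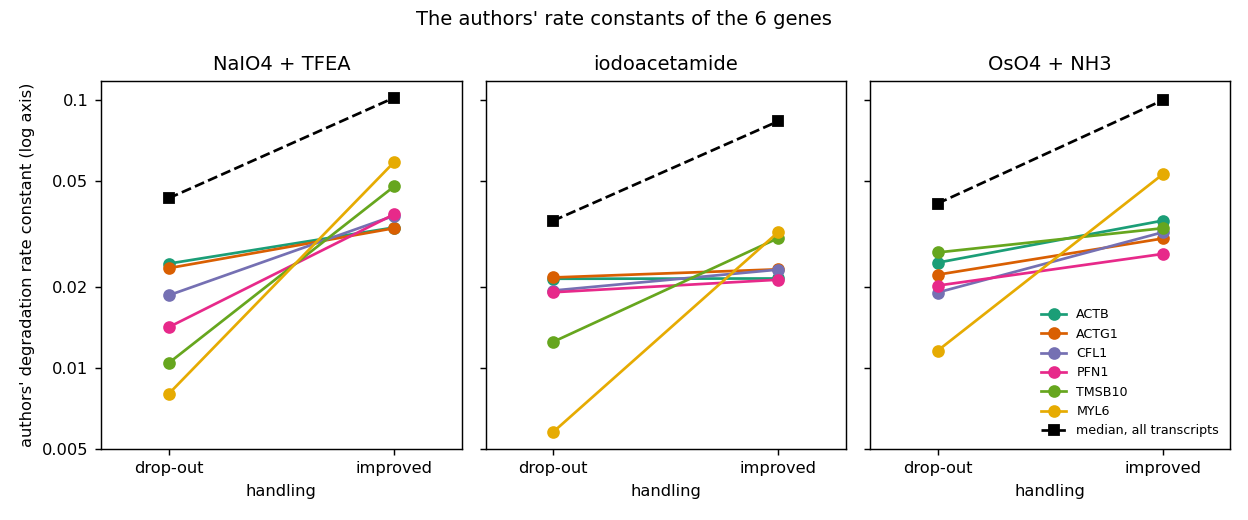
The authors' degradation rate constants (log axis, time unit not stated) under drop-out and improved handling for each chemistry, 1 line per gene, with the median of all transcripts as a dashed line. All 6 genes lie below the median under both handlings, and MYL6 rises most, from 0.00801 to 0.0586 with NaIO4 + TFEA. The drop-out converted share of MYL6 was near the background.

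Other genes of the actin cytoskeleton, 82 listed by role, could be read only in the authors' deposited table, where 31 were present, 26 of them with all 3 chemistries. Of those present, 14 of 31 were higher under improved handling with NaIO4 + TFEA, 12 of 26 with iodoacetamide and 14 of 29 with OsO4 + NH3 at the authors' adjusted p under 0.05, and 0 were lower. These shares, 45.2%, 46.2% and 48.3%, lay near those of all transcripts. The median log2 change of the listed genes was 0.86, 0.91 and 1.25 in the same order. None of the other actins in the list was in the table.

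By role, the nucleation factors had 3 of 5 genes higher with NaIO4 + TFEA, 2 of 3 with iodoacetamide and 2 of 3 with OsO4 + NH3, against 52.6%, 48.9% and 48.1% of all transcripts, the shares to set beside every count by role. CTTN, cortactin, which binds branched filaments, had 1.41, 1.89 and 1.36, DIAPH1, a formin that nucleates straight filaments, 2.20, 1.85 and 1.29, and WASF2, an activator of branching, 0.40, 0.53 and 0.66 (log2 changes in the authors' deposited table, NaIO4 + TFEA, iodoacetamide, OsO4 + NH3). CTTN and DIAPH1 passed with each chemistry and WASF2 with none, and CYFIP1 passed with NaIO4 + TFEA (2.47), where alone it was present. Of the factors of monomer binding and filament turnover, CAP1 and WDR1 were present and 0 of 2 passed with any chemistry, with values of 0.29, 1.85 and 1.67 for CAP1 and 0.72, 0.73 and 0.92 for WDR1. Of the capping and severing proteins, ADD1, adducin, was higher with all 3 (2.22, 2.90 and 2.84) and CAPZB, a capping protein subunit, with none (0.17, 1.77 and 1.33).

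The crosslinkers were the role with the most genes in the authors' deposited table, 4 of 8 higher with NaIO4 + TFEA, 3 of 7 with iodoacetamide and 6 of 8 with OsO4 + NH3, against 52.6%, 48.9% and 48.1% of all transcripts. FLNA, filamin A, had 0.00905 and 0.0166 as rate constants with NaIO4 + TFEA, below each of the 6 actin genes under improved handling, and passed with NaIO4 + TFEA and OsO4 + NH3. ACTN4, an alpha-actinin, passed with NaIO4 + TFEA and OsO4 + NH3 (1.37 and 1.28). ACTN1 passed with OsO4 + NH3 (1.57). SPTAN1, alpha spectrin, passed with all 3 (1.68, 1.97 and 2.00), and SPTBN1, beta spectrin, with iodoacetamide and OsO4 + NH3 (0.86 and 0.85).

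Of the myosins, 3 of 4, 2 of 3 and 1 of 4 were higher, against the same 52.6%, 48.9% and 48.1% of all transcripts. MYH10, a heavy chain of non-muscle myosin II, passed with all 3 chemistries (1.49, 0.90 and 1.22), and MYH9, the other heavy chain abundant in such cells, with none (0.33, 0.44 and 0.23). MYH14 passed with NaIO4 + TFEA (3.43) and MYO1C, a myosin I, with NaIO4 + TFEA and iodoacetamide (2.04 and 2.13). The tropomyosins TPM3 and TPM4, which coat filaments, passed once each, TPM3 with OsO4 + NH3 (1.25) and TPM4 with iodoacetamide (1.34). Of the proteins that link filaments to membranes and adhesions, 3 of 7 were higher with each chemistry, below those 3 shares. EVL, which speeds filament growth, passed with all 3 (2.61, 2.92 and 2.31), ENAH, of the same family, with none (0.50, -0.51 and 0.47), and EZR, ezrin, with NaIO4 + TFEA and OsO4 + NH3 (1.39 and 1.3). TLN1, talin, passed with all 3 (1.39, 1.47 and 1.52) and VCL, vinculin, with iodoacetamide (1.82). SRF, the transcription factor that binds the CArG box, was present with NaIO4 + TFEA and OsO4 + NH3 and did not pass (0.86 and -0.20). Its rate constants under improved handling, 0.271 and 0.20, were above those of all 6 actin genes.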

How the data were processed

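The 6 genes and the lists by role were chosen with earlier results of these data known. Libraries were made with a stranded total-RNA kit, per the labels' protocols. The authors deposited counts of reads by library, alignment, gene, intronic flag, T-to-C mismatches and T positions, per the file headers. Their notes name cutadapt, HISAT2, STAR, HISAT, Picard, HTSeq and DESeq2, and the build GRCh38, per the submitters' processing notes, and versions are not given in the sources used here. The authors also deposited rate constants, a log2 fold change (improved over drop-out) and an adjusted p-value per transcript, per the labels.

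Exonic reads of the HISAT-3N D alignment were tested with edgeR 4.0.16 (R 4.3.3; TMM, filterByExpr, robust quasi-likelihood fit over all 18 libraries), Benjamini-Hochberg adjusted over all genes at 0.05. The converted share was tested where every labelled library held 50 or more exonic reads of the gene, as converted against unconverted counts with a term per library. Both were tested on simulated data with 200 changed genes. Single values were tested by exact permutation within chemistry or by sign flips over libraries. Reads not given to a single gene (17.5% to 41.5%) entered no test, except in the alternative that added shared reads. Depth limits shares of genes near 100 reads per library. Same-group duplicates differed beyond sampling noise (chi-square over degrees of freedom 2.13 to 8.68). The 2 most alike genes were those with the highest Pearson r. Beyond the 6 genes, no symbols were matched to the identifiers of counted genes, so marker genes of the cell line were not analysed. DESeq2 1.42.0 and other filters, alignments and left-out libraries were alternatives. Values of some listed genes are not reported here.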

Additional observations from a re-analysis of the deposited data

How the results depend on the processing

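All 6 genes stayed lower under improved handling, with and without s4U, under every alternative run: other size factors, DESeq2, no filter, intronic reads counted, STAR, HISAT2, the replicate block and each library left out. The rise of the converted share with handling was called in 6 genes by STAR (80% of all genes tested) and with the replicate block (85.6%), in 5 with 2 or more mismatches (80.6%) and by HISAT2 (73.8%), and in the 4 tested at a minimum of 200 reads (84.8%). For s4U against none under drop-out handling, HISAT2 called 1 gene (0.825% of all genes, either direction) and leaving out single libraries 0 to 6 (0.0884% to 2.97%), against 0.353% of all genes with the main settings. Under improved handling it was 0 with intronic reads (0.266%), 5 with HISAT2 (1%) and 1 to 5 with single libraries left out (0.106% to 0.837%).

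For the handling effect on the converted share within a chemistry, NaIO4 + TFEA gave 1 gene with 2 or more mismatches (36.8% of all genes), 4 with intronic reads (77.2%) and 0 to 3 with single libraries left out (15.7% to 50.9%). Iodoacetamide gave 0 at a minimum of 200 reads, where MYL6 was not tested (57.9% of all genes), and 0 to 1 with libraries left out (12.2% to 55.1%). OsO4 + NH3 gave 0 with 2 or more mismatches (39.1%), 4 with intronic reads (81.9%), 1 by HISAT2 (35.8%) and 0 to 4 with libraries left out (19.2% to 57.6%).

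Replicate numbers did not pair samples across the handlings: deviations of same-numbered libraries correlated above 0.1 in 3 of 15 pairs of groups. Those 3 were all the pairs among the drop-out groups, where same-numbered libraries did deviate together. The tests over chemistries count these libraries as independent, so the p-values and SE of the handling effect may be too small. With the replicate number as a block, 5 genes were called with NaIO4 + TFEA (57.7% of all genes) and 4 with OsO4 + NH3 (64.4%), and the other counts of calls stayed within 1.5 times.

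The intronic excess of converted reads was called in 1 gene, ACTB (96.3% of the 1466 genes with enough libraries), and in 0 at a minimum of 50 intronic reads or with the unlabelled library subtracted. Against HISAT-3N, HISAT2 lowered the converted share in 6 genes with setting D (97.2% of all genes) and in 3 with ML (79.8%), and with VL (higher in 71.4%) raised it by 6.69 points (ACTB), 5.20 (ACTG1), 6.95 (CFL1), 7.15 (PFN1), 2.27 (TMSB10) and 4.61 (MYL6). The causes were not tested. Depth limits TMSB10 and MYL6 most, with 100 to 288 and 113 to 314 exonic reads in the improved libraries without s4U.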
